A study of Mus musculus with 32 samples.

Results

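Epithelial and mesenchymal state was followed through 10 genes, Cdh1, Epcam, Cdh2, Vim, Fn1, Snai1, Snai2, Zeb1, Zeb2 and Twist1, in bulk RNA-seq of cancer cells sorted from mouse lung adenocarcinomas. The genes were taken by symbol from per-library tables of 53558 genes, and all 10 were found. Every mouse carried KrasLSL-G12D and a Rosa26LSL-tdTomato reporter, both switched on by intratracheal Lenti-Cre in the cells in which tumors begin. KT tumors (4 libraries, no treatment) had no other engineered allele and kept wild-type Lkb1, whose gene symbol is Stk11. The other groups were Lkb1XTR/XTR, in which Cre turns on a gene trap that silences Lkb1 and the tamoxifen-activated recombinase FLPo-ERT2 can later remove it. Non-restored tumors (10 libraries) pooled 2 control arms, 4 libraries from mice without FLPo-ERT2 that received tamoxifen and 6 from mice with FLPo-ERT2 that received corn oil vehicle. Restored tumors (7 libraries) came from mice with FLPo-ERT2 that received tamoxifen in 4 mg doses for 2 weeks. These tumors had grown for 24 to 27 weeks. Tumors from mice that were also Trp53flox/flox, and so lost p53 in the same cells, had grown for 16 to 19 weeks, so Trp53 loss and tumor time cannot be told apart. They comprised a non-restored group (7 libraries from 4 animals, of both control arms) and a restored group (4 libraries). FLPo-ERT2 was carried at Rosa26 in all cells of the mouse, so restoration was not limited in principle to the tumor cells. All 7 restored and all 4 Trp53-deficient restored libraries were from females, whereas the other groups mixed the sexes. Except for the Trp53-deficient non-restored group, where titles name the animal, no label tells which libraries came from one mouse, and the study describes fewer mice than libraries. The p-values then measure the spread between libraries, which may in part be technical.

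Epithelial cells are held together by E-cadherin, the product of Cdh1, and carry the adhesion molecule EpCAM on their surface. In epithelial-mesenchymal transition, a program used in development, wound repair and cancer, cells lose these contacts and gain N-cadherin (Cdh2), the intermediate filament vimentin (Vim) and the matrix glycoprotein fibronectin (Fn1). The zinc finger factors encoded by Snai1, Snai2, Zeb1 and Zeb2 and the helix-loop-helix factor encoded by Twist1 are known to drive the program. The zinc finger factors repress Cdh1 by binding E-box elements. The same mesenchymal genes are part of the normal program of fibroblasts, endothelial cells and many leukocytes, so a small number of such cells in a sort can add reads to them. The study sorted neoplastic cells positive for tdTomato, a gate that fibroblasts in which Cre did not act should fail. It also removed cells bearing CD45, CD31, F4/80 or Ter119, which mark blood and endothelial cells but not fibroblasts. In bulk libraries, fewer cells of a type and less RNA per cell cannot be told apart.

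Libraries held between 1302482 (KT replicate 2) and 5943951 (restored replicate 7) expected counts. A floor of 3 counts corresponded to between 0.514 and 2.48 CPM, the read count normalised to library size that is used to compare libraries. Intervals and floors of this kind cover counting error only. Stk11 stood at 0 to 1.07 CPM in non-restored, 16.5 to 27.1 CPM in KT and 11.5 to 22.3 CPM in restored libraries. In the Trp53-deficient non-restored and restored libraries it was at 0 to 0.768 CPM and 8.47 to 14.8 CPM. Each library thus matched the Lkb1 state, silenced or expressed, of its label. These levels do not tell KT from restored libraries, and do not check the Trp53 state or the control arm. The lung epithelial list (Nkx2-1, Sftpc, Sftpb, Sftpd, Napsa, Foxa2, Krt8 and Krt18) summed to at least 5690 CPM in every library, the lowest being non-restored replicate 8.

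In the GENCODE M21 annotation of mm10 (GRCm38), all 10 genes are protein coding. Cdh1 lies on chromosome 8 (106603351 to 106670246, plus strand) and Epcam on chromosome 17 (87635979 to 87651129, plus strand). Fn1 lies on chromosome 1 (71585520 to 71653200, minus strand), Snai2 on chromosome 16 (14705852 to 14709385, plus strand) and Twist1 on chromosome 12 (33957671 to 33959829, plus strand). Chromosome 2 holds Vim (13573927 to 13582826, plus strand), Snai1 (167538195 to 167542814, plus strand) and Zeb2 (44983632 to 45117395, minus strand). Positions of Cdh2 and Zeb1 are not given here. Antisense transcripts share exon sequence with Fn1 (Apol7d, 292 bases), Zeb1 (Gm10125, 198 bases) and Zeb2 (Zeb2os, 653 bases), but these held at most 3.04, 1.00 and 1.00 expected counts in any library.

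RefSeq promoter windows (GRCm38.p6, 250 bases before to 50 after the start) were matched for 5 of the 10 genes. They were searched for CACCTG, the core E-box bound by the Snail and ZEB factors, and its reverse complement CAGGTG, which overlap no other motif searched. Of 32851 windows of this length in the genome, 20.2% held the element on either strand and 2.88% held it at least 2 times. The Epcam window (chr17:87635729-87636028, plus strand) held 2 matches, in capitals below, which begin 187 and 19 bases before the start. The Vim window (chr2:13574061-13574360, plus strand) held 0, and the 2 are shown as an epithelial and a mesenchymal member of the set whose levels are compared below.
Epcam: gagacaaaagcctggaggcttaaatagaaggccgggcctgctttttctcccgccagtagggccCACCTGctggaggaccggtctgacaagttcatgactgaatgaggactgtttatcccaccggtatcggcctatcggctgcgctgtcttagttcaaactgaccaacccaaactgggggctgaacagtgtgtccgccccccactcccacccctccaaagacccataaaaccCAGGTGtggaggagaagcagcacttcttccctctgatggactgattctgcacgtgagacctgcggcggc
Vim: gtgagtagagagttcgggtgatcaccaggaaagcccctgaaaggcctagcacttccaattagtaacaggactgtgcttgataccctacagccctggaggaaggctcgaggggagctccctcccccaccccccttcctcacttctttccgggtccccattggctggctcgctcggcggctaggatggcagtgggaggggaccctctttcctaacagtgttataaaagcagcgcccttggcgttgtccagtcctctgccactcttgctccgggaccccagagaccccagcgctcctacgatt
The Snai1 window held 1 match, 126 bases before its start, and the windows of Twist1 and Zeb2 (4 alternative starts) held 0. These letters describe the sequence and not binding.

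The 10 genes spanned a wide range of levels, read here as TPM, the transcript abundance scaled for gene length and library size, which allows genes to be compared. Over all 32 libraries the median was 242 TPM for Cdh1, 185 TPM for Epcam and 142 TPM for Fn1, followed by 22.2 TPM for Vim and 3.85 TPM for Zeb2. Zeb1 (1.71 TPM), Snai1 (1.21 TPM), Snai2 (0.53 TPM), Cdh2 (0.095 TPM) and Twist1 (0 TPM) were lower still. The order of the first 3 was not fixed, since Cdh1 exceeded Epcam in 21 of 32 libraries and Epcam exceeded Fn1 in 24. Both epithelial genes exceeded Vim in 31 of 32 libraries, and the exception was Trp53-deficient restored replicate 3, with 257 TPM of Vim beside 224 TPM of Cdh1 and 226 TPM of Epcam. Vim exceeded Zeb2 in all 32. Below Zeb2 the neighbours in this order were not separable, as Zeb2 exceeded Zeb1 in 21 libraries, Zeb1 exceeded Snai1 in 20 and Snai1 exceeded Snai2 in 20. The rarest genes rested on few reads, with 142 expected counts of Cdh2, 152 of Snai1, 181 of Snai2 and 20 of Twist1 in all 32 libraries together. Cdh2 was at 3 counts or fewer in 22 libraries and Twist1 in 30.

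**Figure D1:**
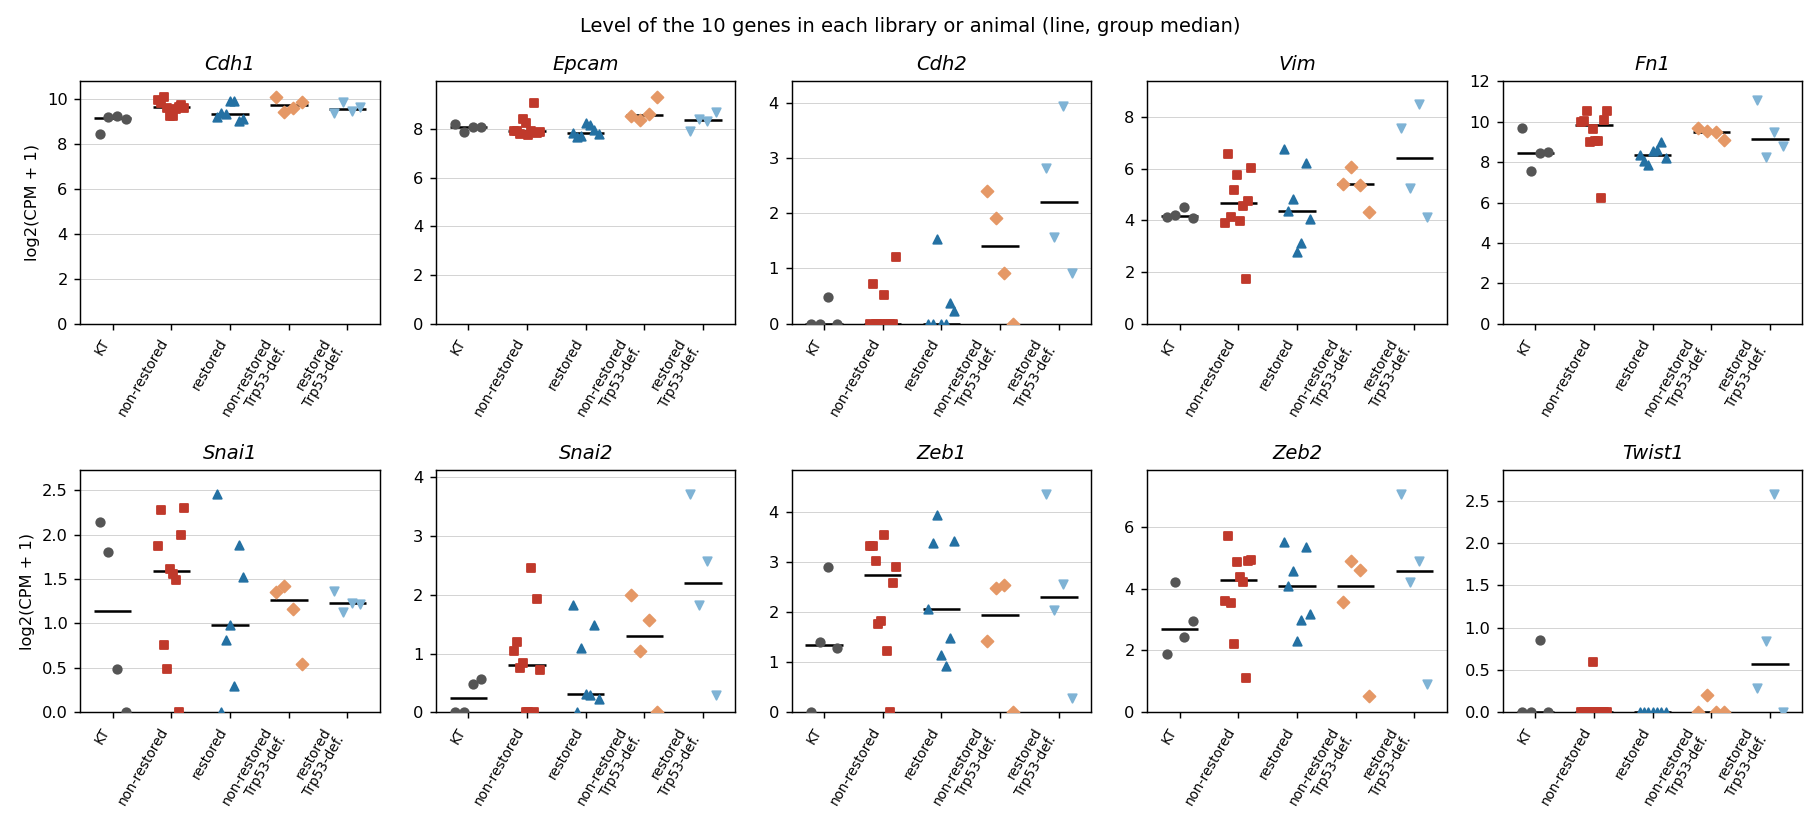
Level of each of the 10 genes as log2(CPM + 1) on the vertical axis, by group on the horizontal axis; each point is a library, or an animal in the Trp53-deficient non-restored group, and each line a group median. The 10 non-restored points of Cdh1 all lie above the 4 KT points, a separation that was not set against that of other genes. In the Trp53-deficient restored group 1 or 2 libraries carry the highest values of Vim, Fn1, Cdh2, Snai2, Zeb1, Zeb2 and Twist1.

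Epithelial genes stayed at high levels in every group. Cdh1 was at 353, 596, 617 and 555 CPM in the 4 KT libraries. In non-restored tumors it ran from 620 to 1108 CPM with a median of 804 CPM, and in restored tumors from 533 to 989 CPM with a median of 661 CPM. Thus all 10 non-restored libraries lay above all 4 KT libraries, while the restored libraries overlapped both groups. The share of all genes that separate these groups in this way is not given here. In the fit of this comparison described below, 5.86% of all genes tested passed an adjusted p of 0.05, and Cdh1 did not. The 4 Trp53-deficient non-restored animals had 1118, 701, 775 and 933 CPM, and the Trp53-deficient restored libraries had 673, 948, 726 and 818 CPM. These ranges overlapped each other and those of the Trp53 wild-type groups under the same Lkb1 state.

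Epcam differed less between KT, non-restored and restored tumors. It was at 294, 234, 271 and 270 CPM in KT, at 216 to 533 CPM (median 241 CPM) in non-restored and at 205 to 303 CPM (median 228 CPM) in restored libraries. The highest value by far was that of non-restored replicate 8, and the other 9 libraries of that group reached 337 CPM. The Trp53-deficient non-restored animals had 374, 332, 390 and 644 CPM and the restored libraries 241, 337, 319 and 415 CPM. All 4 non-restored animals lay above the median of the Trp53 wild-type non-restored libraries, and 8 of those 10 libraries lay below every one of the 4 animals.

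Among the structural mesenchymal genes, Fn1 set restored and non-restored tumors furthest apart. It was at 834, 190, 347 and 362 CPM in KT. Non-restored libraries ran from 74.7 to 1508 CPM with a median of 917 CPM, and restored libraries from 235 to 519 CPM with a median of 329 CPM. All 7 restored libraries lay below the non-restored median and 8 of 10 non-restored libraries lay above every restored library, but the ranges overlapped. Non-restored replicate 8 was the lowest library of the series, and non-restored replicate 4 (511 CPM) lay just below restored replicate 6 (519 CPM). The Trp53-deficient non-restored animals had 824, 753, 709 and 552 CPM, and the Trp53-deficient restored libraries had 2193, 304, 732 and 448 CPM. In the latter group 1 library, replicate 1, stood far above the rest.

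Vim varied widely within every group but KT. KT libraries were narrowly spread at 16.3, 17.4, 21.9 and 16.2 CPM. Non-restored libraries ran from 2.32 to 94.4 CPM (median 24.2 CPM) and restored libraries from 5.88 to 109 CPM (median 19.6 CPM), so that both spanned the KT range on each side. The Trp53-deficient non-restored animals had 41.8, 65.3, 40.6 and 19.2 CPM. The Trp53-deficient restored libraries had 191, 37.2, 366 and 16.6 CPM, of which replicates 1 and 3 exceeded every library of the 3 Trp53 wild-type groups.

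Cdh2 was close to the limit of detection wherever Trp53 was wild-type, with 1 count over the 4 KT libraries, 5 counts over 10 non-restored and 7 counts over 7 restored libraries. The Trp53-deficient non-restored animals had 33, 18, 5 and 0 counts (4.26, 2.75, 0.890 and 0 CPM). The Trp53-deficient restored libraries had 27, 10, 32 and 4 counts (6.05, 1.97, 14.4 and 0.886 CPM). Cdh2 reads were thus seen in 7 of 8 Trp53-deficient animals or libraries, and in 3 of 10 non-restored and 3 of 7 restored libraries with wild-type Trp53.

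Of the transcription factors, Zeb2 was the most abundant. It was at 2.72, 17.4, 4.46 and 6.68 CPM in KT, at 1.16 to 50.7 CPM (median 18.4 CPM) in non-restored and at 3.92 to 44.7 CPM (median 15.8 CPM) in restored libraries. The Trp53-deficient non-restored animals had 10.7, 28.8, 23.5 and 0.456 CPM and the restored libraries 133, 17.7, 28.3 and 0.886 CPM. KT libraries were less spread, around a median of 5.57 CPM, beside a median of 23.0 CPM in Trp53-deficient restored libraries. Inside each other group the range of Zeb2 exceeded the distance between group medians. Its paralog Zeb1 was at 0, 1.65, 6.48 and 1.43 CPM in KT, at 0 to 10.6 CPM (median 5.76 CPM) in non-restored and at 0.899 to 14.5 CPM (median 3.20 CPM) in restored libraries. In the Trp53-deficient groups Zeb1 was at 1.68, 4.58, 4.81 and 0 CPM in non-restored animals and at 19.5, 3.15, 4.95 and 0.222 CPM in restored libraries. For both factors, the highest value of the series was in Trp53-deficient restored replicate 1.

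Snai2, which encodes Slug, was at or below 4.50 CPM in every Trp53 wild-type library and in every Trp53-deficient non-restored animal. In the Trp53-deficient restored libraries it was at 12.1, 2.56, 4.95 and 0.222 CPM, and 54 of its 181 counts in the series came from replicate 1. Snai1, which encodes Snail, never exceeded 4.47 CPM and its group means were 1.57 CPM in KT, 2.03 CPM in non-restored, 1.57 CPM in restored and 1.23 and 1.36 CPM in the Trp53-deficient groups. Twist1 was listed at 0 in 26 of 32 libraries, and 11 of its 20 counts came from Trp53-deficient restored replicate 3 (4.95 CPM). The other 3 libraries of that group had 1, 4 and 0 counts, and the 7 restored libraries with wild-type Trp53 had 0, against a floor of at least 0.514 CPM per library.

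Because the same transcripts are made by stromal cells, markers of other cell types were read in each library. The 12 fibroblast markers (Col1a1, Col1a2, Col3a1, Dcn, Lum, Pdgfra, Pdgfrb, Dpt, Mfap4, Fbln1, Tcf21 and Inmt) summed to 16.2 to 88.7 CPM in KT, 7.42 to 437 CPM in non-restored and 27.6 to 268 CPM in restored libraries. They summed to 9.12 to 390 CPM in Trp53-deficient non-restored animals and 2.22 to 1600 CPM in Trp53-deficient restored libraries. The top value was that of replicate 1, which held all 12 markers, with 267 CPM of Col1a1, 374 CPM of Col1a2, 473 CPM of Col3a1, 226 CPM of Dcn, 89.1 CPM of Pdgfra and 41.9 CPM of Pdgfrb. At the other end, Trp53-deficient restored replicate 4 had 7 of the 12 at 0, including Col3a1. Non-restored replicate 8 had 4 of 12 at 0 and 2.78 CPM of Col1a1.

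The 7 smooth muscle and pericyte markers summed to 6.20 to 86.4 CPM over all 29 libraries or animals, with Acta2 at 27.5 CPM in Trp53-deficient restored replicate 1 and at 0.23 CPM in non-restored replicate 8. The 7 endothelial markers summed to 1.86 to 134 CPM, with the highest sum in non-restored replicate 10 (Pecam1, 29.4 CPM). The 12 immune markers summed to at most 38.1 CPM except in non-restored replicate 2 (106 CPM), restored replicate 1 (224 CPM) and restored replicate 6 (141 CPM), in which Ptprc, which encodes CD45, was at 24.4, 45.4 and 38.4 CPM. Red blood cell markers summed to at most 6.95 CPM in any library, and airway markers to 13.4 to 429 CPM. Of the mesothelial markers, Msln reached 325 CPM while Wt1, Upk3b and Lrrn4 together stayed at or below 4.05 CPM in every library. None of the 8 marker lists differed between KT, non-restored and restored groups in a 2-sided exact permutation test of log2(summed CPM + 1) after adjustment over 24 tests. The smallest adjusted p, 0.192, was that of the mesothelial list in non-restored against KT (log2 difference 2.99, unadjusted exact p = 0.00799). For the fibroblast list the log2 difference was 1.29 in non-restored against KT (adjusted p = 0.427 in the exact test) and 0.12 in restored against non-restored (adjusted p = 0.915 in the exact test). The latter was -0.30 without non-restored replicate 8.

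**Figure D2:**
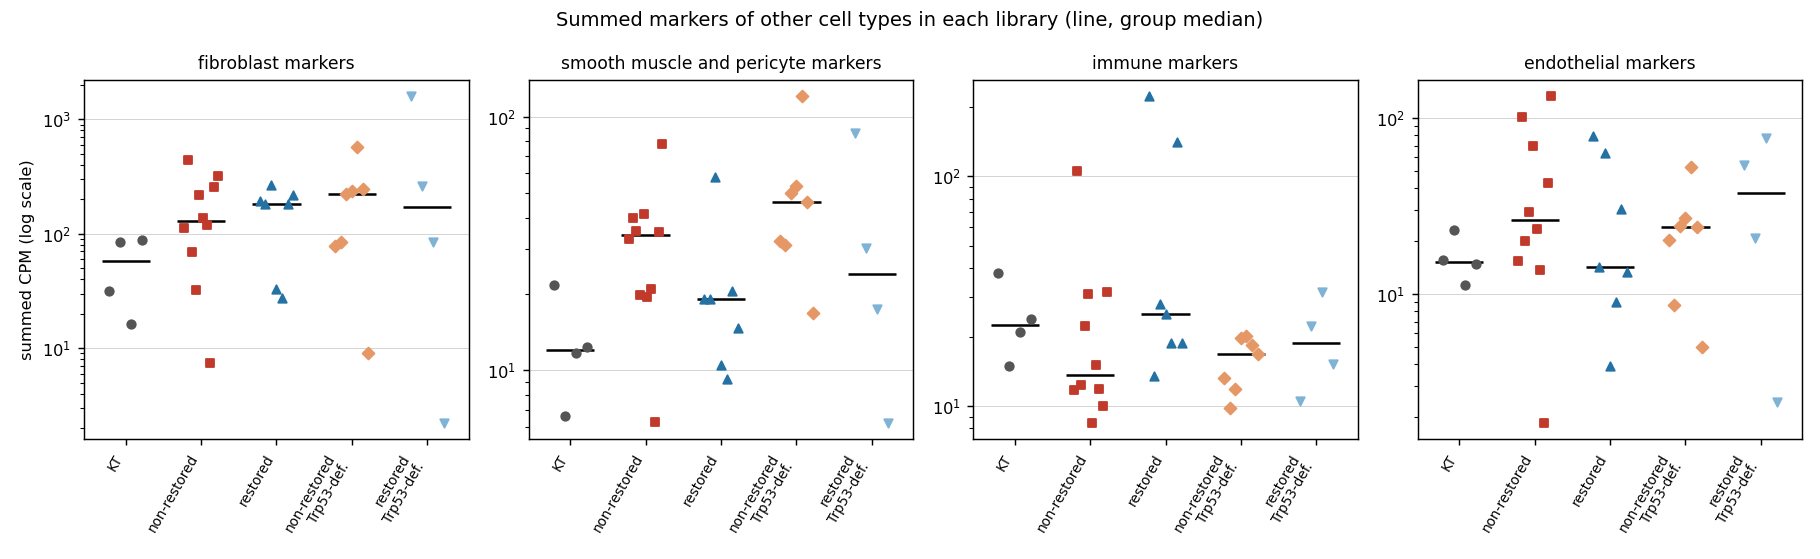
Summed CPM (vertical axis, log scale) of fibroblast, smooth muscle and pericyte, immune and endothelial markers in each of the 32 libraries by group, with lines at the group medians. Trp53-deficient restored replicate 1 reaches 1600 CPM of fibroblast markers and replicate 4 of the same group 2.22 CPM, and 3 Trp53 wild-type libraries exceed 100 CPM of immune markers.

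The libraries at the ends of the fibroblast range were also at the ends of the range of several mesenchymal genes. Trp53-deficient restored replicate 1 was the highest library of the series for Fn1, Snai2, Zeb1 and Zeb2. Non-restored replicate 8, Trp53-deficient non-restored animal 4 (9.12 CPM of fibroblast markers) and Trp53-deficient restored replicate 4 were the 3 lowest for Zeb2, at 1.16, 0.456 and 0.886 CPM. Fn1 did not share this pattern in full, since it stood at 552 and 448 CPM in the latter 2, where fibroblast markers were almost absent. Nor did Vim, Cdh2 and Twist1 in Trp53-deficient restored replicate 3, which had the highest level of each in the series (366, 14.4 and 4.95 CPM) beside 84.6 CPM of fibroblast markers. That library did hold the highest endothelial sum (76.9 CPM) and immune sum (31.5 CPM) of its group, while its Cdh1 and Epcam lay within the range of the other libraries. The part of other cells in these values was not tested beyond the fits with the fibroblast sum as a covariate given below.

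**Figure D3:**
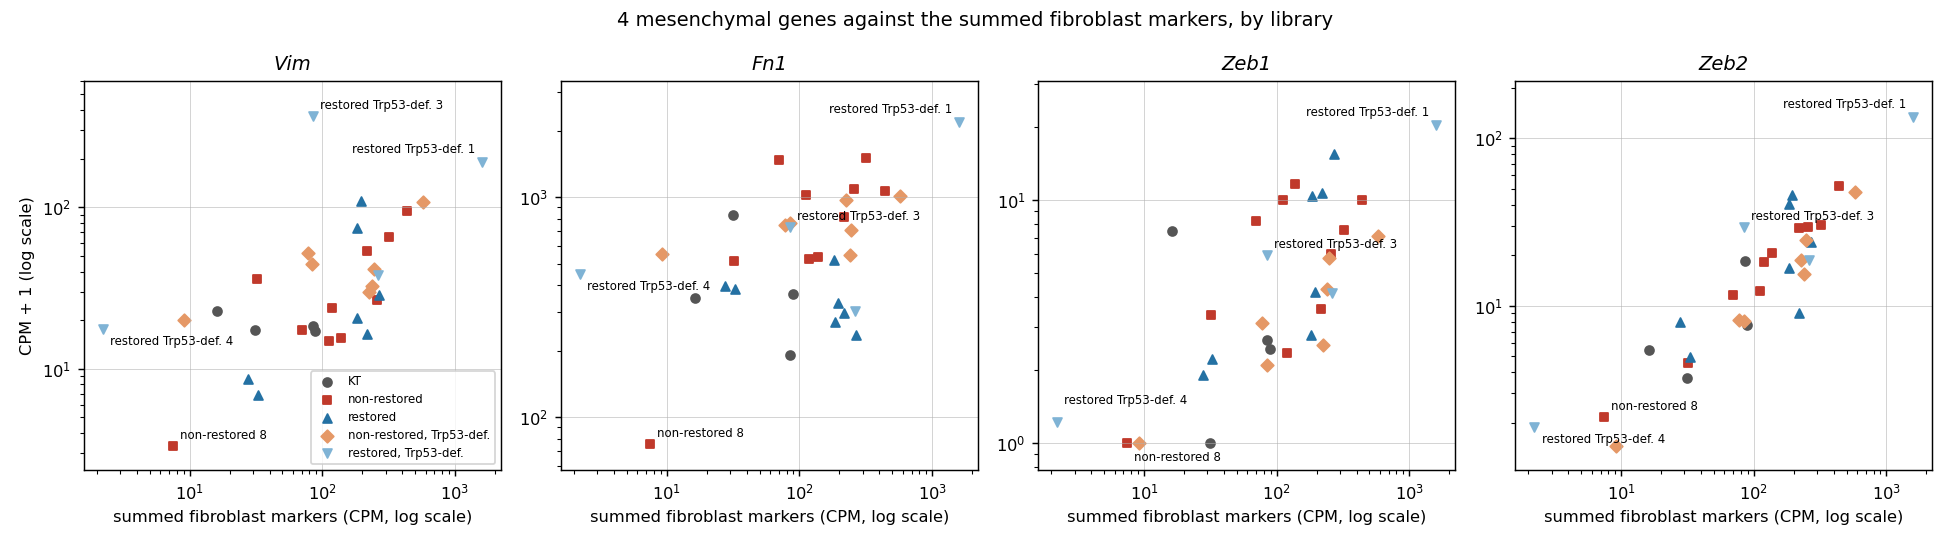
CPM + 1 of Vim, Fn1, Zeb1 and Zeb2 (vertical axis, log scale) against the summed CPM of 12 fibroblast markers (horizontal axis, log scale) in the 32 libraries, with group shown by colour and symbol. The Zeb2 points range from 0.456 CPM in Trp53-deficient non-restored animal 4 to 133 CPM in Trp53-deficient restored replicate 1. Vim in Trp53-deficient restored replicate 3 (366 CPM) lies above libraries with more fibroblast markers.

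The first comparison asked which of these genes responded to 2 weeks of Lkb1 restoration. Of the 10 genes, 6 (Cdh1, Epcam, Vim, Fn1, Zeb1 and Zeb2) passed the filter on low counts in the fit of the 21 Trp53 wild-type libraries, and 0 of the 6 passed an adjusted p of 0.05, where 1.87% of 12636 genes did (edgeR quasi-likelihood test, 0.973% higher and 0.894% lower). Fn1 was nearest, with a mean of 346 ± 95.2 CPM (SD, n = 7) in restored and 863 ± 458 CPM (SD, n = 10) in non-restored tumors. Its log2 fold change was -1.32 (SE 0.41), which edgeR gave an adjusted p of 0.114. It passed in DESeq2 (adjusted p = 0.0174). It also passed when non-restored replicate 8 was left out (-1.45 on the log2 scale, adjusted p = 0.011) and against the vehicle arm alone (-1.49, adjusted p = 0.0298), but not against the tamoxifen arm, which holds that library (-0.99, adjusted p = 0.449). With sex as a covariate the log2 fold change was -1.0 (adjusted p = 0.205), and with the fibroblast sum as a covariate -1.20 (adjusted p = 0.113). The other members were centred near 0, with log2 fold changes of -0.22 (SE 0.16) for Cdh1, -0.19 (SE 0.16) for Epcam, 0.11 (SE 0.60) for Vim, 0.14 (SE 0.66) for Zeb1 and 0.01 (SE 0.58) for Zeb2. The standard errors of Vim, Zeb1 and Zeb2 were at least 3 times those of Cdh1 and Epcam, and a p above the threshold does not show equal levels. Without the 3 libraries over 100 CPM of immune markers the Vim value was -0.85 and the Zeb2 value -0.54, with adjusted p of 0.603 and 0.813. The median log2 fold change of the 6 genes was -0.09, beside -0.01 over all genes tested.

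Loss of Lkb1 was read as non-restored against KT, which compares Lkb1XTR/XTR with wild-type mice and treated with untreated mice. Again 0 of 6 members passed, where 5.86% of genes did (2.38% higher and 3.48% lower). Cdh1 lay at the threshold, with 827 ± 153 CPM (SD, n = 10) in non-restored and 530 ± 121 CPM (SD, n = 4) in KT tumors. The log2 fold change was 0.64 (SE 0.19), at an edgeR adjusted p of 0.0523. DESeq2 gave an adjusted p of 0.015, and with the fibroblast sum as a covariate the log2 fold change was 0.74 with an adjusted p of 0.0106. Among female libraries alone it was 0.42 (adjusted p = 0.541), and without KT replicate 1, the lowest library, 0.49 (adjusted p = 0.22). Epcam differed by 0.06 (SE 0.19). The mesenchymal members had positive but imprecise estimates of 0.89 (SE 0.78) for Vim, 0.99 (SE 0.50) for Fn1, 1.01 (SE 0.91) for Zeb1 and 1.39 (SE 0.80) for Zeb2, with adjusted p from 0.27 to 0.571. With the fibroblast sum as a covariate these became -0.39 for Vim, 0.57 for Fn1, -0.22 for Zeb1 and -0.12 for Zeb2. The median over the 6 was 0.94, beside 0.03 over all genes tested, and the 8 fibroblast markers tested had a median of 1.51 with 0 called.

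Restored tumors were set against KT tumors in the same fit, and so share libraries with both comparisons above. Here 0 of 6 members passed, where 0.459% of genes did (0.127% higher and 0.332% lower). The log2 fold change was 0.42 (SE 0.20) for Cdh1 (adjusted p = 0.47), -0.13 (SE 0.20) for Epcam and -0.33 (SE 0.50) for Fn1. It was 0.99 (SE 0.82) for Vim, 1.15 (SE 0.95) for Zeb1 and 1.4 (SE 0.83) for Zeb2, and these 3 became -0.29, -0.21 and 0.09 with the fibroblast sum as a covariate.

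In Trp53-deficient tumors the restoration contrast was made over 4 animals against 4 libraries. Of the 8 members that passed the filter, 0 were called, as were 0% of 12518 genes; 748 of all genes had an unadjusted p under 0.05, and DESeq2 gave no member an adjusted p below 0.725. Vim had the largest estimate, with 153 ± 162 CPM (SD, n = 4) in restored and 41.7 ± 18.8 CPM (SD, n = 4) in non-restored tumors. This gave 1.87 on the log2 scale (SE 0.91, edgeR adjusted p = 0.803). Without replicate 3 it was 0.99. The estimates were 1.39 (SE 0.96) for Cdh2, 1.62 (SE 0.98) for Snai2, 1.29 (SE 1.10) for Zeb1, 1.5 (SE 1.25) for Zeb2 and 0.42 (SE 0.57) for Fn1, and all had an adjusted p of at least 0.803. The signs of Zeb1, Zeb2 and Fn1 turned with 1 library. Without replicate 1, the library with the highest fibroblast marker sum, the values were -0.13 for Zeb1, -0.08 for Zeb2, -0.50 for Fn1 and 0.58 for Snai2. Vim stayed at 1.73 and Cdh2 at 1.34. Without replicate 3, Cdh2 was at 0.51. Cdh1 (-0.12, SE 0.18) and Epcam (-0.37, SE 0.24) had the opposite sign.

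Trp53-deficient and Trp53 wild-type tumors were compared within each Lkb1 state over 25 libraries or animals, where 9 of the 10 members passed the filter (all but Twist1) and 0 were called in either state. In non-restored tumors, where 0.598% of 13705 genes were called (0.372% higher and 0.226% lower), Cdh2 differed by 3.36 on the log2 scale (SE 1.00, adjusted p = 0.101), resting on 56 counts against 5. Epcam was at 435 ± 141 CPM (SD, n = 4) against 279 ± 97.1 CPM (SD, n = 10), which is 0.64 on the log2 scale (SE 0.20, adjusted p = 0.116 by edgeR). Both passed without non-restored replicate 8, the library with the highest Epcam of its group (Cdh2 3.18, adjusted p = 0.046; Epcam 0.77, adjusted p = 0.00709), and with the fibroblast sum as a covariate (adjusted p of 0.0362 and 0.00679). The other 7 lay between -0.85 (Zeb1) and 0.35 (Snai2). In restored tumors, where 0.372% of genes were called (0.182% higher and 0.19% lower), Cdh2 differed by 4.05 on the log2 scale (SE 1.02, adjusted p = 0.086), resting on 73 counts against 7. It was 3.11 without Trp53-deficient restored replicate 3 (adjusted p = 0.27) and 5.53 without restored replicate 3 (adjusted p = 0.0226), which held 5 of the 7 counts. With the fibroblast sum as a covariate it passed (4.18, adjusted p = 0.0206), as it did without non-restored replicate 8 (adjusted p = 0.0476). That library is in neither group of this comparison, but it enters the fit through the estimate of spread, the filter and the TMM factors. Snai2 (2.64, SE 1.00), Vim (2.07, SE 0.81) and Fn1 (1.4, SE 0.50) followed, with adjusted p of 0.226, 0.242 and 0.206. Without Trp53-deficient restored replicate 1, Fn1 was at 0.49, and Zeb1 and Zeb2 turned from 0.26 and 1.18 to -1.14 and -0.39. Vim was at 1.17 without replicate 3. The remaining estimates were 0.14 (SE 0.18) for Cdh1, 0.42 (SE 0.21) for Epcam and -0.13 (SE 0.79) for Snai1.

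Whether restoration acted differently with and without Trp53 was tested with an interaction term. No member was called, as were 0% of 13705 genes (424 with an unadjusted p under 0.05, and 0 members in DESeq2). The estimate was 1.68 (SE 0.72) for Fn1, whose fitted change was negative in Trp53 wild-type and positive in Trp53-deficient tumors. It was 0.78 without Trp53-deficient restored replicate 1. For Zeb1 and Zeb2 it was 1.11 and 1.46 with all libraries and -0.28 and -0.10 without that replicate. For Vim it was 1.74 (SE 1.16), or 0.84 without replicate 3, and for Cdh1 and Epcam it was 0.05 (SE 0.25) and -0.22 (SE 0.30).

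**Figure D4:**
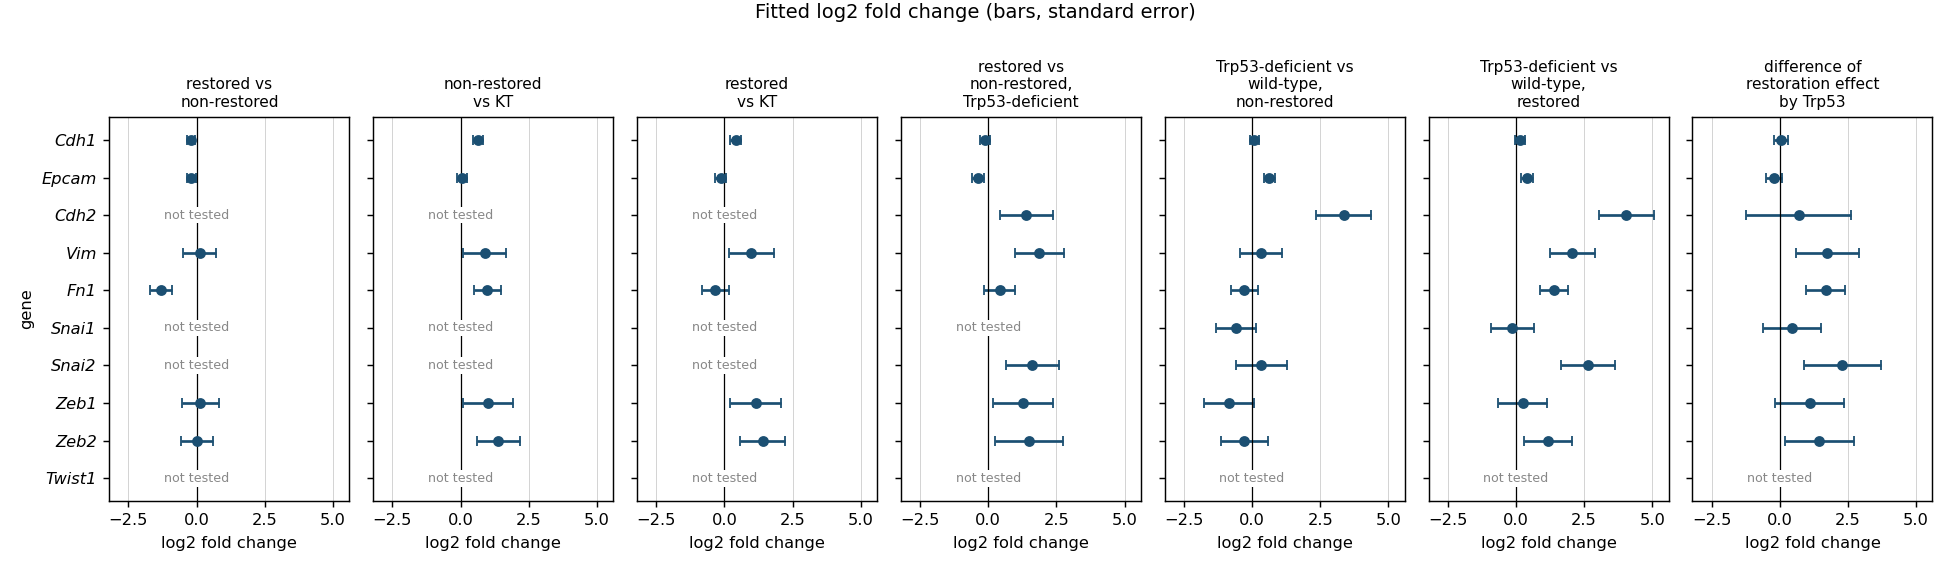
Fitted log2 fold change (horizontal axis) of each gene (vertical axis) in the 7 comparisons, with bars of 1 standard error; genes below the count filter are marked as not tested. No value passes an adjusted p of 0.05, and bars are short for Cdh1 and Epcam and long for Vim, Cdh2, Snai2, Zeb1 and Zeb2.

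Other genes of the program were read from lists of related function, which were chosen with results of these data known. Of 24 tested epithelial junction and keratin genes, 0 passed in restored against non-restored tumors. In non-restored against KT, where 2.38% of all genes tested were called higher, 2 of 24 rose. They were Cldn18, a tight junction claudin of alveolar epithelium (log2 fold change 0.58, SE 0.15, adjusted p = 0.0234), and Tjp1, which encodes the junction scaffold ZO-1 (0.44, SE 0.12, adjusted p = 0.0331). Of 9 epithelial transcription and splicing factors, Ehf, an ETS factor, rose with restoration (0.80, SE 0.19, adjusted p = 0.0242) and Esrp2, a splicing regulator of epithelial cells, was higher in non-restored than in KT tumors (0.74, SE 0.14, adjusted p = 0.00221). Each is 1 gene of 9, beside 0.973% and 2.38% of all genes tested called higher in these comparisons. Both epithelial lists had 0 calls in restored against KT tumors.

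Mesenchymal effector genes had calls in both Trp53 wild-type comparisons that include the non-restored group. Of 17 tested, 2 fell with restoration, where 0.894% of all genes tested were called lower. They were Itgb3, the integrin beta-3 subunit (-2.82, SE 0.35, adjusted p = 9.01e-05), and Tgfbi, a secreted matrix protein (-1.61, SE 0.39, adjusted p = 0.0345). In non-restored against KT 3 of 17 rose, where 2.38% of all genes tested were called higher: Itgb3 (2.95, SE 0.47, adjusted p = 0.000547), the membrane matrix metalloproteinase gene Mmp14 (2.16, SE 0.37, adjusted p = 0.00113) and the integrin beta-1 gene Itgb1 (0.56, SE 0.13, adjusted p = 0.0112). Itgb3 was at 16.8 CPM or more in every non-restored and at 9.41 CPM or less in every restored library. The share of all genes with such a gap is not given here. The highest Itgb3 value, 110 CPM, was in non-restored replicate 8, which had the lowest fibroblast marker sum of its group. Of 15 TGF-beta pathway genes, Tgfbr2, the type II receptor, fell with restoration (-0.69, SE 0.13, adjusted p = 0.00478) and was higher in non-restored than in KT tumors (0.93, SE 0.16, adjusted p = 0.000943). Of 5 other EMT factors that could be tested, Tcf4 was higher than in KT in both non-restored (2.11, SE 0.38, adjusted p = 0.00192) and restored tumors (1.95, SE 0.39, adjusted p = 0.0247). In restored against KT, 0.127% of all genes tested were called higher.

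In the Trp53-deficient restoration contrast and the interaction 0 genes of these lists were called, and in Trp53-deficient against wild-type non-restored tumors 0 as well. Between restored tumors of the 2 Trp53 states, 0.182% of all genes tested were called higher in Trp53-deficient tumors. Among them were 1 of 17 mesenchymal effector genes, Tnc (tenascin C, 3.04, SE 0.64, adjusted p = 0.0261), and 1 of 15 TGF-beta pathway genes, Ltbp1 (2.55, SE 0.50, adjusted p = 0.0153). The highest values of Tnc and Ltbp1, 193 and 80.8 CPM, were in Trp53-deficient restored replicate 1, which had the highest fibroblast marker sum. In the cell type marker lists 0 genes were called in any of the 7 comparisons. In the lung epithelial list 1 gene of 8 was called, Foxa2, a forkhead factor of lung epithelium, which was higher in non-restored than in KT tumors (0.49, SE 0.14, adjusted p = 0.0372), where 2.38% of all genes tested were called higher. These counts describe the named genes, and no list was tested against other genes.

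For the 7 members that passed the filter over all 29 libraries or animals, the 3 genes with the most similar profile among 13273 were listed by Spearman correlation of log2 CPM. These values describe the libraries, which share depth and normalisation, and carry no test. Zeb2 was most like Eln, which encodes elastin (0.938), Plxdc2 (0.931) and Sparcl1 (0.90), and the same 3 genes led after group means were removed (0.937, 0.947 and 0.928). Vim was most like Tfpi (0.849), Cmtm3 (0.827) and Clec1a (0.824), and after removal of group means most like Adgrl4 (0.907), S1pr1 (0.899) and Ptprb (0.879), receptors known from blood vessel endothelium. Zeb1 was most like Gli3 (0.789), Ttc28 (0.777) and Kctd12 (0.762). Cdh1 was most like Ano1 (0.883), Pls3 (0.857) and Anxa3 (0.849), and Epcam most like Shoc2 (0.946), Tnfrsf22 (0.913) and Ahcyl1 (0.904). Fn1 and Snai1 had weaker leading values, 0.725 with Ckb, 0.715 with Ears2 and 0.703 with Lamc1 for Fn1, and 0.757 with Emilin2, 0.718 with Ypel4 and 0.718 with 2810001G20Rik for Snai1. None of these 21 genes belonged to a list used here. Within the set, the highest Spearman correlation over the 29 libraries or animals was that of Vim with Zeb2 (0.761) and the lowest that of Epcam with Zeb1 (-0.666), which was -0.748 after removal of group means. Cdh1 with Zeb1 gave -0.107.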

How the data were processed

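Per the labels and the study's methods, the authors aligned reads to mm10 with STAR (2.6.1d) and estimated abundance with RSEM (1.2.30). The deposited expected counts are not normalized, and the deposited TPM values carry RSEM's scaling for effective length and library size. Deposited DESeq2 (1.26.0) comparisons, which hold log2 fold changes and p-values, and a table of normalized counts were not used.

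Expected counts were rounded and tested with edgeR (4.0.16) quasi-likelihood F tests, TMM factors and filterByExpr. P-values were adjusted by Benjamini-Hochberg across every gene that passed the filter, at a threshold of 0.05. The Trp53 wild-type groups were fitted together, the Trp53-deficient groups together, and all but KT together between Trp53 states, with libraries of one animal summed. Alternatives were DESeq2 (1.42.0), RLE factors, other filters and units, sex, each control arm, a replicate block and leaving out each library. The fibroblast covariate, and leaving out libraries over 100 CPM of immune markers, were added after the data were seen.

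The 10 genes and all lists were chosen with earlier results of these data known. In each comparison the members that passed the filter were reported, singly or within a range. Beside them stand at most 3 called genes of any other list, fixed stromal markers, Stk11 and the 3 most similar genes of each member. Neither batch nor date was labelled, and no libraries were duplicates.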

Additional observations from a re-analysis of the deposited data

Results flagged for a closer look

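Over 60 sets of values (10 genes and the summed fibroblast and immune markers in 5 groups), 10 had a highest library whose gap to its nearest neighbour exceeded Dixon's 95% critical value. Chance alone flags about 5% of sets only where values are normally distributed, which CPM of rare genes and marker sums need not be. The count of flags is therefore no measure of an excess over chance. Sets in which all other libraries are at 0 are flagged by a few reads.

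Non-restored replicate 8 held 533 CPM of Epcam, where the other 9 libraries had 216 to 337 CPM. It also had the lowest fibroblast, smooth muscle and endothelial marker sums of its group, and the lowest Fn1, Vim and Zeb2. Its lung epithelial marker sum was also the lowest of the series. Trp53-deficient restored replicate 1 held 1600 CPM of fibroblast markers, where the other 3 libraries had 2.22 to 261 CPM. Trp53-deficient restored replicate 3 held 4.95 CPM of Twist1, where the others had 0 to 0.788 CPM. Non-restored replicate 2 held 106 CPM of immune markers, where the other 9 had 8.45 to 31.4 CPM.

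The remaining cases concern genes near the detection limit. Cdh2 was at 0.405 CPM in KT replicate 3 (1 count), 1.31 CPM in non-restored replicate 10 (2 counts) and 1.91 CPM in restored replicate 3 (5 counts), where no other library of the same group exceeded 0.642 CPM. Twist1 was at 0.810 CPM in KT replicate 3 (2 counts), 0.513 CPM in non-restored replicate 5 (1 count) and 0.153 CPM in Trp53-deficient non-restored animal 2 (1 count), with all others of the same group at 0. None of the differences in restoration effect between Trp53 backgrounds passed its test.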

How the results depend on the processing

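No member was called in any comparison by the reported fit, and alternatives moved that count in 4 of 7. For restored against non-restored it was 1 (Fn1) in DESeq2 and against the vehicle arm alone, and 0 to 1 when a library was left out, the call arising without non-restored replicate 8. For non-restored against KT it was 1 (Cdh1) with RLE size factors, with at least 10 counts in every library, in DESeq2 and with the fibroblast covariate. It was 0 to 1 when a library was left out, with a call in 5 of 21 fits (without non-restored replicate 5, 6 or 8, or restored replicate 4 or 5). For Trp53-deficient against wild-type non-restored tumors it was 2 (Cdh2 and Epcam) with the fibroblast covariate, 1 (Cdh2) with each library as a unit, and 0 to 2 when a library or animal was left out, the calls arising without non-restored replicate 8. For restored tumors it was 1 (Cdh2) with the fibroblast covariate and 0 to 1 when a library was left out (without non-restored replicate 8 or restored replicate 3). The cause of these moves was not tested. Cdh2 had entered both of these Trp53 comparisons through the Trp53-deficient groups, where its level was high. The call of 0 held in all alternatives for restored against KT, for the Trp53-deficient restoration contrast and for the interaction. The fibroblast marker difference between restored and non-restored libraries turned from 0.12 to -0.30 without non-restored replicate 8. A pseudocount of 0.1 left 0 marker lists called.

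Deviations of libraries with the same replicate number correlated at -0.0476 to 0.475 over 15 pairs, and 6 pairs were over 0.1. All pairs of a non-restored and a restored library were positive (0.0362 to 0.475). Pairs of unequal number were not compared, so these values do not settle whether the numbers pair the libraries. The reported fits treated the libraries as unpaired. The highest values were between non-restored and restored libraries (0.475 for number 4 and 0.225 for number 7). With the replicate number as a block, the replicate block fit called 1 member (Cdh1) in non-restored against KT and 0 in the other 2 Trp53 wild-type comparisons. Depth limits Cdh2, Snai1, Snai2 and Twist1 most, since 3 counts correspond to 0.514 to 2.48 CPM.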
